A study of Mus musculus with 25 samples.

Results

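The genes described here encode the proteins of the cytosolic ribosome in mouse liver. They were chosen by name and by annotation: protein-coding genes with Rps or Rpl symbols, plus Rpsa and Rplp0, Rplp1 and Rplp2, without pseudogenes and without the kinases of ribosomal protein S6. The rule gave 83 genes among 41388 gene identifiers. Of these, 79 passed the filter on low values (over 1 CPM, counts scaled to a common library total, in at least 2 libraries), out of 14065 genes that passed it in all. The 79 genes comprised 31 proteins of the small (40S) subunit, 45 of the large (60S) subunit, and the paralogs Rpl22l1, Rpl7l1 and Rps27l. The rule reads only symbols, annotation and level, but the set was chosen with earlier results of these data known. The filter was not close for any of the genes. The lowest gene kept was Rpl22l1, with 25.1 CPM in its second highest library, and the highest gene left out was Rpl24, with 0.397 CPM.

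Livers came from 25 male mice of strain C57B/6J, aged 20 weeks, with 1 library for each mouse. All mice received an AAV8 virus, which carried either an empty vector (EV) or NAMPT under a hepatocyte promoter (thyroxine binding globulin). NAMPT makes the NAD precursor nicotinamide mononucleotide, and SIRT1 is a deacetylase that uses NAD. The mice were littermates from a Sirt1 floxed colony: WT mice carried the floxed allele without Cre, and LKO mice also carried Albumin-Cre, which deletes floxed sequence in hepatocytes. The groups were chow WT EV (n = 3), and, on Western diet (WD) for 12 weeks, WD WT EV (n = 6), WD WT NAMPT (n = 6), WD LKO EV (n = 5) and WD LKO NAMPT (n = 5).

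A cytosolic ribosome reads messenger RNA with its small subunit and joins amino acids with its large subunit, and most ribosomal proteins are present in about equal number. Ribosomal protein messenger RNAs of mammals begin at a C within a short run of pyrimidines, the 5′ terminal oligopyrimidine (TOP) motif, through which mTORC1 and the RNA-binding protein Larp1 control their translation and stability. Liver makes most plasma proteins and holds many ribosomes, whose content follows feeding and growth.

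Total counts ran from 20166175 to 32937326 per library. Expression levels between libraries are given as CPM after scaling by the trimmed mean of M-values (TMM). Whole-gene Sirt1 was at 8.86 ± 0.573 CPM (SD, n = 6) in WD WT EV. It was at 8.57 ± 1.34 CPM (SD, n = 5) in WD LKO EV and at 9.82 ± 1.36 CPM (SD, n = 5) in WD LKO NAMPT, so the counts did not separate the genotypes, and the libraries are called the libraries labelled LKO below. Counts over the whole gene cannot show the loss of only part of it. Nampt was 59.5 ± 10.6 CPM (SD, n = 6) in WD WT NAMPT against 47.4 ± 6.46 CPM (SD, n = 6) in WD WT EV, a difference that did not pass the limma test (log2 fold change 0.34, adjusted p = 0.144). For the libraries labelled LKO it was 79.9 ± 28.4 CPM (SD, n = 5) with NAMPT against 56.1 ± 12.0 CPM (SD, n = 5) with EV, and this difference did not pass either (log2 fold change 0.41, adjusted p = 0.403). The library WD LKO NAMPT replicate 3 stood apart. Its mitochondrially encoded genes took 12.3% of counts, against 4.07% to 8.57% in the other libraries, and 23 of the 79 ribosomal protein genes lay more than 0.5 log2 units below their own mean there. No other library had more than 3 such genes. The median mitochondrial share was 7.16% in chow WT EV and 6.73% in WD WT EV. For the comparisons that use this library, the counts of ribosomal protein genes called and their median fold changes are given below with and without it, while means over all 25 libraries include it.

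The sequences at the start sites are shown first, because the TOP motif is the feature that these messenger RNAs share outside the rule used here. A RefSeq start site (GRCm38.p6) was found for 63 of the 83 genes. A run of at least 5 pyrimidines that began with C within 5 bases of the annotated start was found in 29 of the 63 (46.0%), against 21.2% of 27025 genes of all kinds. Among 17492 protein-coding genes the share was 21.5%. Each line gives 30 bases, of which the last 15 begin at the annotated start, read along the gene's own strand, and capitals mark the pyrimidine run. Rps24 and Rpl35a have further RefSeq starts, which hold no run and are not shown. The first 6 genes are among the larger falls on Western diet and carry the run.
Rps24, chr14:24490663-24490692, + strand: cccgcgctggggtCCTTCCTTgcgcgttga
Rpl13a, chr7:45128731-45128760, - strand: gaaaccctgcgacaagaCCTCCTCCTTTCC
Rpl39, chrX:37085208-37085237, - strand: cctaagctccgCCTCTagcgacttcttcta
Rpl12, chr2:32961697-32961726, + strand: ggcggagcaggatccgtCTTTTCggctttc
Rpl27a, chr7:109519180-109519209, + strand: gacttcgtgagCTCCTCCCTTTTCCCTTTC
Rpl22l1, chr3:28805493-28805522, + strand: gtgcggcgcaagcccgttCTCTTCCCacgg
The next 3 genes also fell on Western diet, but no run was found at their annotated starts.
Rps3a1, chr3:86142654-86142683, - strand: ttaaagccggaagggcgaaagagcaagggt
Rps4x, chrX:102189377-102189406, - strand: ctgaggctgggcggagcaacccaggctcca
Rpsa, chr9:120127751-120127780, + strand: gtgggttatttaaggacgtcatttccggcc
The last 2 genes carry a run and did not pass the test in that comparison.
Rplp2, chr7:141447636-141447665, + strand: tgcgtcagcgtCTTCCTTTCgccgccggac
Rpl35a, chr16:33056467-33056496, + strand: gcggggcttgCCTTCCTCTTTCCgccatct

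The start of Rps3a1 holds the letters CCGGAAG, the core bound by factors of the ETS family. Windows ran from 250 bases before to 50 bases after the start and were searched on both strands. CCGGAAG was found in 26 of 63 ribosomal protein genes (41.3%), in 9.93% of all genes and in 12.9% of protein-coding genes. The letters AAGATGGCG, the core of the YY1 motif, were found in 4 of 63 (6.35%), against 1.64% of all and 2.14% of protein-coding genes. TATAAA was found in 7 of 63 (11.1%), against 15.7% of all and 14.8% of protein-coding genes. These are matches of letters in a window and were not tested as sites.

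The 83 genes lie on 19 chromosomes, with at most 14 on 1 chromosome (chromosome 7) and 4 on X. Ribosomal protein genes have many processed pseudogenes, and a read that fits both copies was not counted by the authors. Over the genes kept, a median of 61.7% of the 50-base words of the annotated transcripts occurred in no other annotated gene. The share was lowest for Rpl35 (4.91%, shared mostly with the overlapping gene Wdr38) and was under 50% for 27 of the 79. The counts of the genes with a low share cover only the part of their reads that is unique. Rpl24, a protein of the 60S subunit, had 1 to 14 counts per library and shares most of its words with Gm28037, with 18.3% found in no other gene. The other genes left out are paralogs used mainly in testis or muscle: Rpl10l had 0 counts in every library, Rpl3l 0 to 7 and Rpl39l 0 to 8. For Rpl10l, 0 counts allow up to 3 in a library, by counting error only.

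Levels were compared between genes as RPKM, the deposited values, which are counts scaled by library total and by exon length. The median of the 79 genes was 98.9 RPKM, against 3.51 RPKM for all genes kept, and 61 of the 79 were among the 1000 highest genes. The range between the highest and the lowest gene was 59.3-fold. The highest was Rplp1, a protein of the 60S stalk, at 731 ± 141 RPKM (SD over all 25 libraries). Rps27 followed at 521 ± 95.8, Rps26 at 374 ± 60.7, Rps12 at 369 ± 82.2 and Rps29 at 363 ± 96.7 RPKM, and the last 3 differed by less than their spread. The lowest were Rps15a at 12.3 ± 2.37, Rps19 at 17.5 ± 3.45, Rpl7l1 at 18.7 ± 2.78, Rpl35a at 27.1 ± 4.91 and Rpl35 at 28.8 ± 5.25 RPKM. RPKM divides by the length of all annotated exons of a gene, which ran from 255 bases (Rps27) to 6262 bases (Rps15a). Annotated exons that liver does not use therefore lower the value. Across the 79 genes, Spearman's rho between mean RPKM and the share of unique words was -0.03, a description over genes that come from the same libraries. Among the paralogs, Rps27l reached 175 ± 26.2 RPKM, Rpl22l1 29.7 ± 11.2 and its counterpart Rpl22 31.7 ± 2.73 RPKM. Values for the genes named here and below rest on the annotated exons in the same way.

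**Figure D1:**
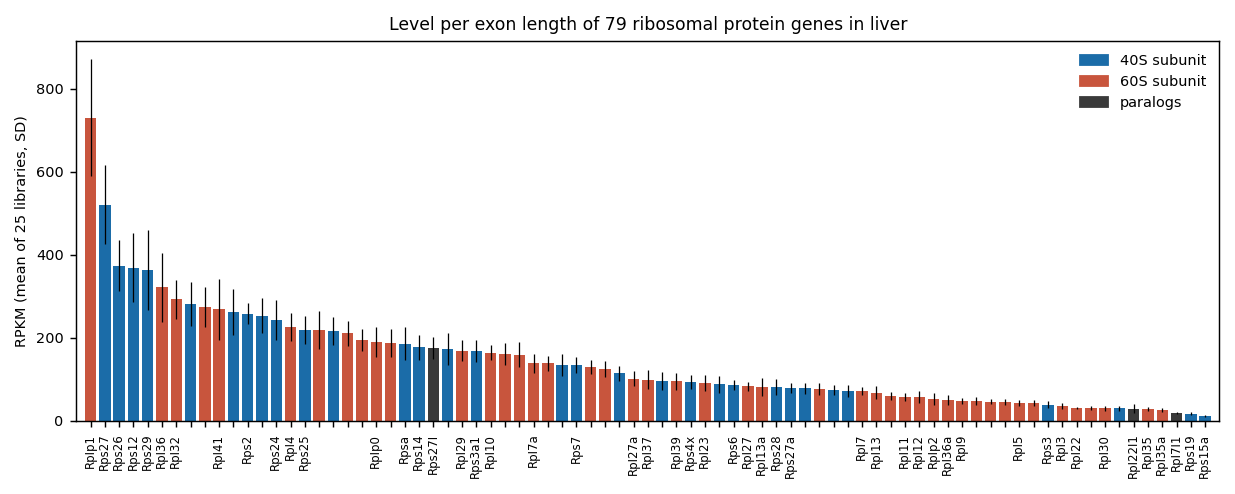
Bars give the mean RPKM of each of the 79 genes over 25 libraries, with the SD as error bars, ordered from Rplp1 (731) to Rps15a (12.3), and colours mark the 40S subunit, the 60S subunit and the paralogs. Symbols are given for genes described in the text. Genes of both subunits are found along the whole range.

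Within groups the genes varied little. The median residual SD of log2 CPM was 0.19 over the 79 genes and 0.25 over all genes kept. Among the steadiest were Rps7 (0.11) and Rpl22 (0.11), and the most variable were Rpl22l1 (0.44), Rps29 (0.40) and Rpl36 (0.34). The library WD LKO NAMPT replicate 3 entered these values. Rps29, a short zinc-binding protein of the 40S subunit, was at 64.4 CPM there and between 221 and 253 CPM in the other 4 libraries of the group. Rpl5, which binds 5S ribosomal RNA, was at 246 CPM in that library and at 150 to 164 CPM in the others, so individual genes deviated in both directions.

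The 79 genes together took 1.49%, 1.47% and 1.71% of all counts in the chow WT EV libraries. In WD WT EV the share ran from 1.01% to 1.44%, with a median of 1.21%. It ran from 1.28% to 1.88% with a median of 1.34% in WD WT NAMPT. Libraries labelled WD LKO EV stood at 1.21%, 1.19%, 1.2%, 1.13% and 1.26%, and in those labelled WD LKO NAMPT 1.35%, 1.21%, 1.0%, 1.29% and 1.17%. The chow libraries were all above the WD WT EV libraries, by the least margin for WD WT EV replicate 7 (1.44%). The highest share of all, 1.88%, was in WD WT NAMPT replicate 2. A share of counts falls when a few other genes take more reads, and TMM scaling is meant to lessen this.

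After TMM scaling the summed level was 14816, 14890 and 17496 CPM in the chow libraries. In WD WT EV it ran from 11067 to 15248 CPM with a median of 12563 CPM, so WD WT EV replicate 7 now lay above the 2 lower chow libraries. The sums were 12474 to 14595 CPM in WD WT NAMPT, 11679 to 13099 CPM in WD LKO EV and 11306 to 12679 CPM in WD LKO NAMPT, all below the lowest chow library. The ratio of the summed 60S to the summed 40S genes was similar in all groups, with a mean of 1.35 ± 0.031 (SD, n = 3) in chow WT EV. On Western diet the mean ratio was 1.38 ± 0.0101 (SD, n = 6) for WT with EV, and 1.39 ± 0.0344 (SD, n = 6) for WT with NAMPT. For the libraries labelled LKO, it reached 1.38 ± 0.0281 (SD, n = 5) with EV and 1.39 ± 0.0452 (SD, n = 5) with NAMPT, or 1.37 ± 0.0269 (SD, n = 4) without replicate 3 of the latter.

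**Figure D2:**
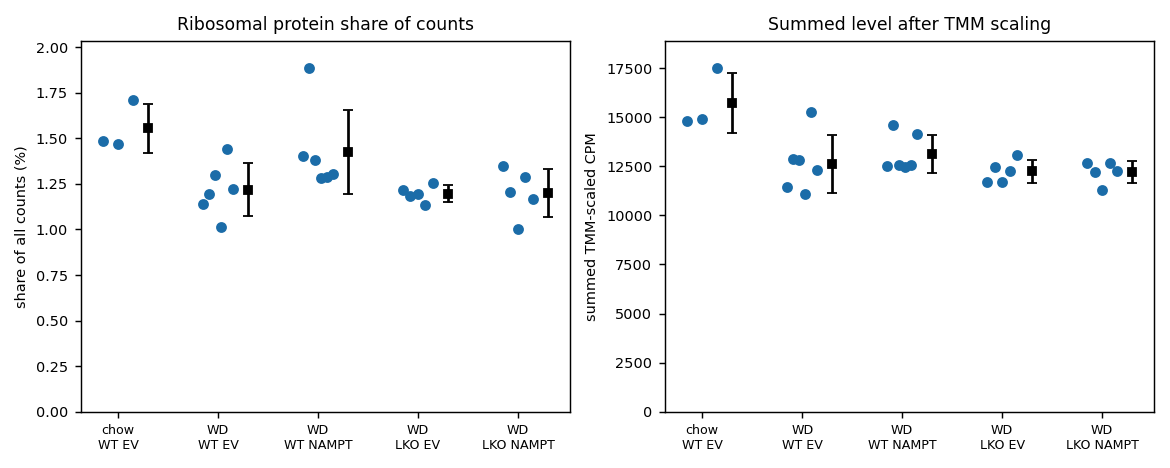
Points are libraries, and squares with bars are the mean and SD of each group. The left panel gives the share of all counts in percent, and the right panel the summed TMM-scaled CPM. The 3 chow libraries are the highest apart from WD WT NAMPT replicate 2 (1.88%) on the left and WD WT EV replicate 7 (15248 CPM) on the right.

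The comparison of WD WT EV with chow WT EV asks what the Western diet alone changed. Most ribosomal protein genes were lower on Western diet, and none was higher: 42 of the 79 fell (limma with voom and sample weights, adjusted p of 0.05 or less over all genes). The background was 12.0% of all genes called lower. The median log2 fold change was -0.27, a level 0.827 times that of chow, while the median over all genes was 0.00. In all, 77 of the 79 log2 fold changes were negative, against 50.5% of all genes, and they ran from -0.76 (Rpl22l1) to 0.07 (Rpl37). The genes tended to move together within a library, so their number does not stand for a number of mice. In WD WT EV the median gene lay -0.23 to 0.24 log2 units from its mean over all libraries. The SD of this value between libraries of a group was 0.116. The subunits moved by like amounts, with 18 of 31 genes of the 40S subunit called (median -0.29), 23 of 45 of the 60S subunit (median -0.27), and Rpl22l1 among the 3 paralogs. In 16 of the 79 genes every WD WT EV library was below every chow library, against 8.45% of all genes.

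The count depended on the test and on single mice. It was 16 with edgeR's quasi-likelihood test, 26 with DESeq2, 17 without sample weights, and 14 without chow WT EV replicate 2, while no gene was called higher in any of these. The share of all genes called lower also fell, to 4.82%, 5.75%, 4.93% and 3.46% in that order. The median stayed between -0.24 and -0.37 when any 1 library was left out. Among the genes described below, Rpl9, Rpl11, Rpl22l1, Rpl23, Rpl30, Rpl39 and Rps3 did not pass with either edgeR's quasi-likelihood test or DESeq2. Rpl4, Rpl5, Rpl35, Rps6 and Rps26 passed with DESeq2 and not with the quasi-likelihood test, and the direction was unchanged in all 12. Single mice mattered as much. Of all calls of named genes, some not reported here, 15 were lost without chow WT EV replicate 2, against 13 with the quasi-likelihood test.

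**Figure D3:**
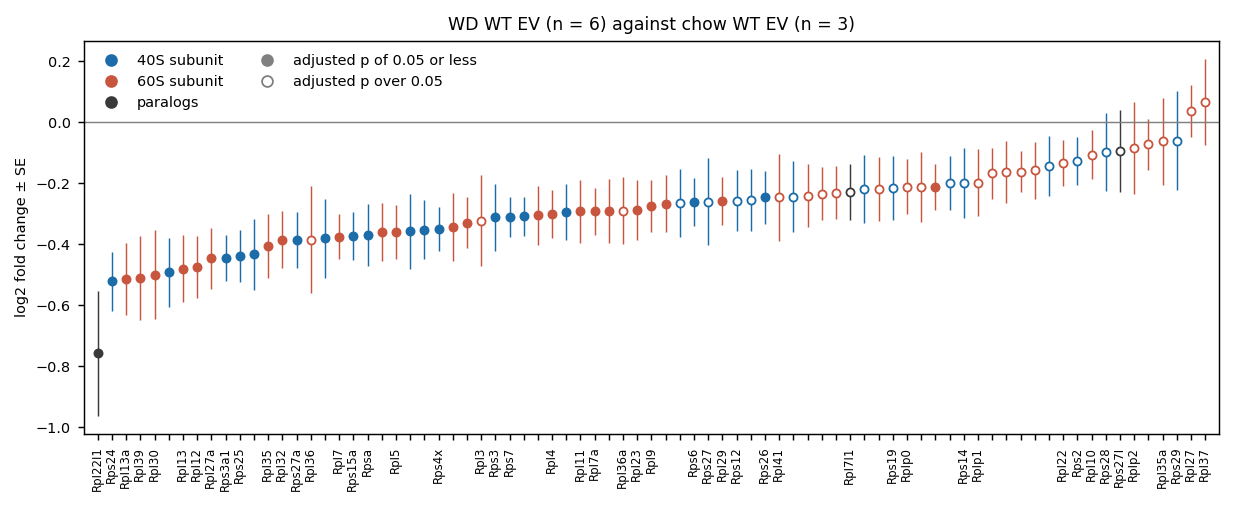
Each point is a gene with its log2 fold change between WD WT EV (n = 6) and chow WT EV (n = 3) and its SE, ordered by size, with symbols for genes described in the text. Filled points passed an adjusted p of 0.05, and all 42 of them lie below 0.

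Among 40S proteins, Rps24 (ENSMUSG00000025290, chr14:24490681-24496146) had the largest fall. It was at 251, 254 and 296 CPM in the chow libraries, and in WD WT EV ran from 156 to 238 CPM with a median of 169 CPM. The groups did not overlap, and the log2 fold change was -0.52 (SE 0.0963, adjusted p = 4.7e-04 by limma). Rps24 is needed for the maturation of 18S ribosomal RNA, and so is Rps7. Rps7 (ENSMUSG00000061477) was at 160, 160 and 153 CPM in chow and at 114 to 149 CPM, median 128 CPM, in WD WT EV, again without overlap, with a log2 fold change of -0.31 (adjusted p = 0.0018).

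Rps3a1 (ENSMUSG00000028081, chr3:86137940-86142702) had the smallest adjusted p of the 79, 2.1e-04 by limma. It was at 208, 226 and 216 CPM in chow and at 134 to 185 CPM, median 163 CPM, in WD WT EV, a log2 fold change of -0.44. The X-linked Rps4x (ENSMUSG00000031320) was at 190, 191 and 209 CPM in chow and at 134 to 160 CPM, median 153 CPM, in WD WT EV (log2 fold change -0.35, adjusted p = 0.0012). In Rps3a1, Rps4x and Rps7 all 22 Western diet libraries of the 4 groups lay below the lowest chow library. The same held for 3.10% of all genes, a share close to 3 of 79. In 30 of the 79 genes at least 20 of the 22 did, against 8.04% of all genes.

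Rpsa, which is also a laminin-binding protein, was at 405, 398 and 538 CPM in chow and at 267 to 401 CPM, median 320 CPM, in WD WT EV. The highest WD WT EV library was above the lowest chow library, and the fall passed the test (log2 fold change -0.37, adjusted p = 0.0104). Rps6, the target of S6 kinase, was at 155, 151 and 179 CPM in chow and at 106 to 163 CPM, median 128 CPM, in WD WT EV (-0.26, adjusted p = 0.0186). Rps3, at the mRNA entry channel, fell by 0.31 on the log2 scale (adjusted p = 0.0438) and Rps27a, which is made fused to ubiquitin, by 0.39 (adjusted p = 0.0039). Rps15a fell by 0.37 and Rps26 by 0.25, and both also passed.

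Other named 40S genes did not pass the limma test. The log2 fold changes were -0.13 for Rps2, -0.20 for Rps14, -0.21 for Rps19, -0.26 for Rps27, -0.10 for Rps28, -0.06 for Rps29 and -0.26 for Rps12. Rps29 was at 267, 248 and 303 CPM in chow and at 218 to 299 CPM, median 246 CPM, in WD WT EV, so its groups overlapped widely. Rps19, the gene most often mutated in Diamond-Blackfan anemia, was at 86.8, 94.3 and 91.4 CPM in chow and at 66.8 to 98.9 CPM, median 75 CPM, in WD WT EV.

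Among 60S proteins, Rpl13a (ENSMUSG00000074129, chr7:45125558-45136231), often used as a reference gene, was at 314, 315 and 418 CPM in chow and at 184 to 342 CPM, median 224 CPM, in WD WT EV. Only the highest WD WT EV library, replicate 7, reached the chow range, and the log2 fold change was -0.51 (SE 0.119, adjusted p = 0.0033 by limma). Rpl39, a small protein at the peptide exit tunnel, was at 200, 172 and 166 CPM in chow and at 106 to 145 CPM, median 128 CPM, in WD WT EV, without overlap (-0.51, adjusted p = 0.0100). Rpl30 was at 123, 123 and 80.2 CPM in chow and at 57.2 to 99.1 CPM, median 93.8 CPM, in WD WT EV. Chow WT EV replicate 3 lay within the range of the other group, and the fall passed the limma test with weights (-0.50, adjusted p = 0.0162).

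Rpl5 and Rpl11 join 5S ribosomal RNA in the particle that also binds the p53 regulator Mdm2. Rpl5 was at 195, 210 and 211 CPM in chow and at 144 to 191 CPM, median 155 CPM, in WD WT EV, without overlap (-0.36, adjusted p = 0.0053). Rpl11 was at 180, 194 and 220 CPM in chow and at 125 to 229 CPM, median 155 CPM, in WD WT EV (-0.29, adjusted p = 0.0412). Rpl11 overlapped through WD WT EV replicate 7 alone, since the next highest library was at 157 CPM. Rpl4 fell by 0.30 on the log2 scale, Rpl7 by 0.38, Rpl7a by 0.29, Rpl9 by 0.27, Rpl23 by 0.29 and Rpl35 by 0.40, and all 6 passed.

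The stalk proteins Rplp0, Rplp1 and Rplp2, which recruit elongation factors, did not pass. Their log2 fold changes were -0.21, -0.20 and -0.08. Rplp0 was at 323, 342 and 409 CPM in chow and at 226 to 331 CPM, median 306 CPM, in WD WT EV. The remaining 60S genes of the panel without a call were Rpl3 (-0.32, SE 0.150), which lines the peptidyl transferase centre, Rpl10 (-0.11), Rpl22 (-0.13) and Rpl41 (-0.25), and of the other named genes Rpl36 (-0.38, SE 0.176) and Rpl35a (-0.06). Rpl27 (0.04) and Rpl37 (0.07), named here after their values were seen, were the 2 genes with a positive log2 fold change. Rpl37 was at 74.4, 82.0 and 102 CPM in chow and at 70.6 to 99.6 CPM, median 84.4 CPM, in WD WT EV.

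Of the paralogs, Rpl22l1 (ENSMUSG00000039221, chr3:28805436-28807352), the counterpart of Rpl22, had the largest fold of all 79 genes and also the largest spread. It was at 25, 22.3 and 16.6 CPM in chow and at 9.42 to 20.0 CPM, median 12.9 CPM, in WD WT EV. The groups overlapped, and the log2 fold change was -0.76 (SE 0.206, adjusted p = 0.0103 by limma). Rpl7l1 (-0.23, adjusted p = 0.0724) and Rps27l (-0.09, adjusted p = 0.651) did not pass.

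The falls were spread over genes of different kinds. Of the genes kept, 29 carried a pyrimidine run at the annotated start, and 15 of these 29 were called lower, with a median log2 fold change of -0.26. Of the 30 with a start site but no run, 17 were called, with a median of -0.29. A run was sought only within 5 bases of the annotated start, so a misplaced start can hide one. The split therefore cannot show whether the falls depend on the motif. Of the 27 genes with under 50% unique words, 17 were called (median -0.32), and of the other 52, 25 were called (median -0.25). The 26 genes of shortest exon length (up to 961 bases) had 14 calls and a median of -0.27. The 26 longest (from 2053 bases) had 15 calls and a median of -0.29. Among other genes with exon lengths of 1000 bases or less, 7.81% were called lower and the median was -0.02.

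The other Western diet groups were set beside the same 3 chow libraries as a description. For each group, the median log2 difference between means over the 79 genes, with a pseudocount of 0.5 CPM, was -0.32 in WT mice with EV and -0.28 in WT mice with NAMPT. With the LKO label it came to -0.36 with EV and -0.35 with NAMPT, or -0.33 without replicate 3 of the latter. Means were below the chow mean in 79, 76, 79 and 78 of the 79 genes, in that order. Of all genes, 50.3%, 51.8%, 50.1% and 50.1% were below it. All these values rest on the same chow mice, of which replicate 3 was the highest. In chow WT EV replicate 3 the median gene lay 0.43 log2 units above its mean over all libraries, against 0.20 and 0.22 in the other chow libraries.

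**Figure D4:**
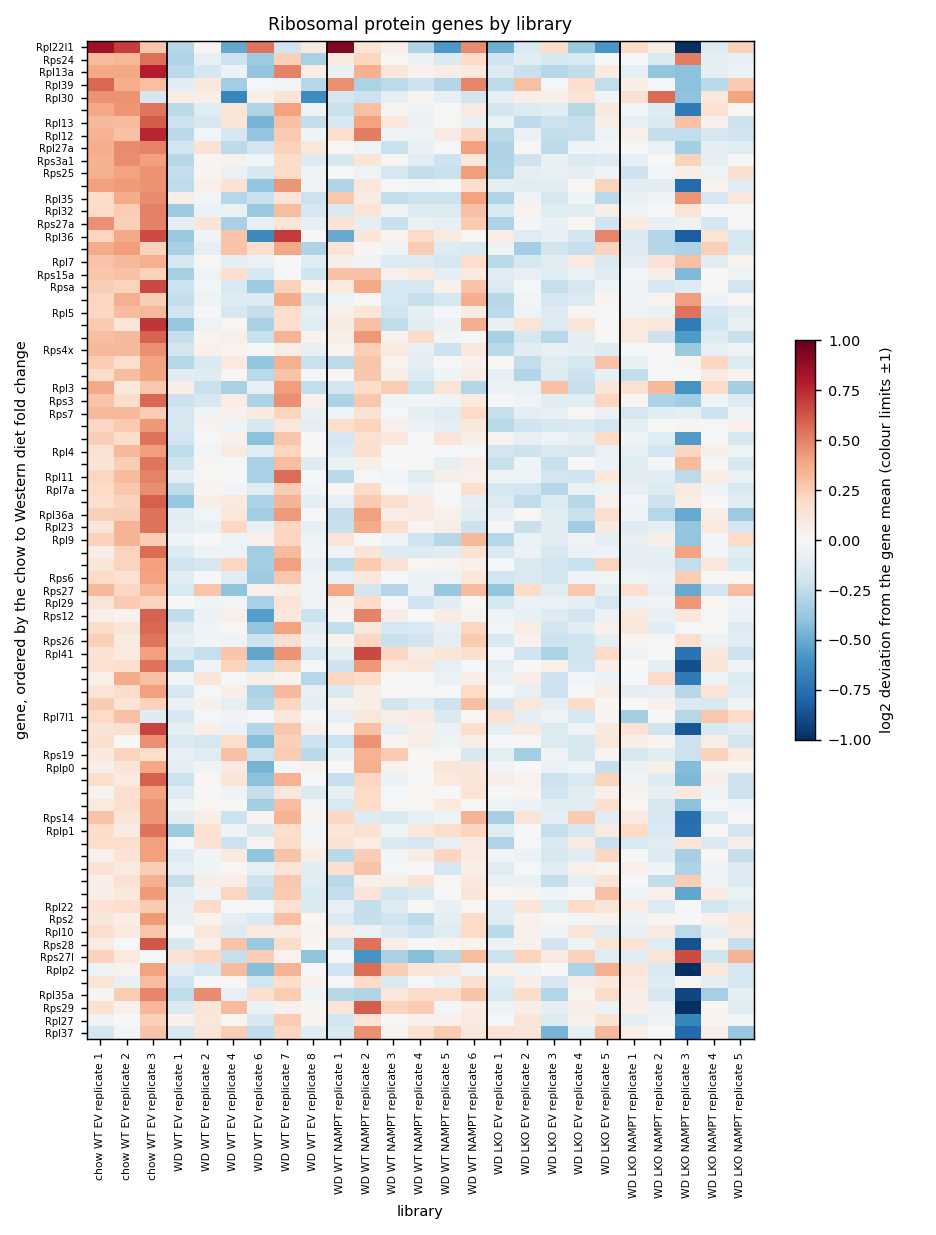
Rows are the 79 genes, ordered by the change between chow WT EV and WD WT EV and labelled where the text describes them, columns are the 25 libraries by group, and colours give the log2 deviation of CPM from the gene's mean. The chow columns are above the mean in 74 to 76 of the 79 genes, WD WT EV replicate 7 in 75, and WD LKO NAMPT replicate 3 shows genes far to both sides.

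Genes around the ribosome were followed in the same comparison, in which 12.0% of all genes were called lower and 10.1% higher. Fau, which encodes the 40S protein eS30 fused to a ubiquitin-like protein and is outside the naming rule, fell by 0.40 on the log2 scale (adjusted p = 0.0025 by limma), with a chow mean of 193 ± 26.2 CPM (SD, n = 3) and a WD WT EV mean of 139.8 ± 22.4 CPM (SD, n = 6). Of 20 listed translation factors and other genes of the TOP class, 5 fell and 1 rose, with a median of -0.09. The motif was not looked up for this list. Hnrnpa1, an RNA-binding protein, fell by 0.42 on the log2 scale, and Eef1d, Eef1b2 and Eef1g, subunits of the elongation factor eEF1B, fell by 0.31, 0.23 and 0.19. The initiation factor subunit Eif3m fell by 0.20, and the poly-A binding protein Pabpc1 rose by 0.32. Of 40 ribosome biogenesis genes 5 fell and 1 rose (median -0.12), a share of falls close to that of all genes. Rrp1b (-0.53), the box C/D particle proteins Nop58 (-0.51) and Nop56 (-0.44) and Heatr1 (-0.29) fell most, and Nop10 rose by 0.34.

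Of 20 genes of mTORC1 and Myc control, 6 rose and 1 fell, with a median of 0.15. Larp1 fell by 0.42 on the log2 scale (adjusted p = 1.5e-04 by limma), with a chow mean of 234 ± 2.53 CPM (SD, n = 3) and a WD WT EV mean of 177 ± 10.8 CPM (SD, n = 6). The mTORC1 inhibitor Sesn2 rose by 1.0, the translation repressor Eif4ebp1 by 0.44, the Myc antagonist Mxd4 by 0.45, the kinase Mtor itself by 0.41, its inhibitor Tsc2 by 0.25, and Mycn by 2.70 from 0.240 CPM in chow to 2.22 CPM. Myc itself did not pass (0.40, adjusted p = 0.627).

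Marker levels of cell types also moved with diet. In bulk tissue, fewer cells of a type and less RNA per cell cannot be told apart. The summed level of 6 hepatocyte markers was 63479 to 75969 CPM in chow and 50819 to 67525 CPM in WD WT EV, and 3 of the 6 fell (Cps1, Serpinc1 and Tat). The sum of 11 markers of Kupffer cells and macrophages was 363 to 458 CPM in chow and 448 to 637 CPM in WD WT EV, and 4 rose. Of 6 stellate cell markers 2 rose (285 to 332 CPM against 278 to 462 CPM). Of 6 endothelial markers 1 rose and 1 fell (268 to 293 CPM against 268 to 313 CPM). None of 5 erythroid markers was called, with sums of 664 to 933 CPM against 492.5 to 1206 CPM. None of 5 cholangiocyte markers was called (27.3 to 36.0 CPM against 23.4 to 82.2 CPM). Of 8 neutrophil markers 5 were kept and none was called (3.12 to 6.19 CPM against 2.73 to 8.25 CPM), with Ly6g among those not kept. Of 6 T cell markers 4 were kept, and none was called (4.46 to 6.00 CPM against 2.75 to 5.82 CPM). Of 5 B cell markers 4 were kept, and Cd79b fell (8.13 to 16.1 CPM against 7.07 to 42.7 CPM). The part of these in the ribosomal protein result was not tested.

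The comparison of WD WT NAMPT with WD WT EV asks what the NAMPT vector changed in WT liver on Western diet. No ribosomal protein gene passed, while 13.4% of all genes were called (1890 genes). That share moved with single libraries. It was 0.939% without WD WT NAMPT replicate 3, 2.07% without WD WT EV replicate 2, 4.44% without WD WT EV replicate 6, and 5.20% and 8.86% without WD WT NAMPT replicates 2 and 1. It was 20.2% without WD WT NAMPT replicate 6. The median log2 fold change was 0.04 and the range -0.34 (Rps27l) to 0.24, with a median SE of 0.0956, and 4 genes had an unadjusted p under 0.05, against 30.3% of all genes. edgeR's quasi-likelihood test, edgeR's exact test and DESeq2 also called 0 of the 79, and 3.04%, 6.11% and 8.49% of all genes. The smallest p was that of Rps27l (ENSMUSG00000036781, chr9:66946086-66949516), a paralog of Rps27 that p53 induces. It ran from 107 to 168 CPM with a median of 151 CPM in WD WT EV, and from 94.0 to 176 CPM with a median of 115 CPM in WD WT NAMPT, a log2 fold change of -0.34 (adjusted p = 0.0775 by limma). The groups overlapped, and the gene passed when WD WT EV replicate 4 or 8, or WD WT NAMPT replicate 6, was left out. The adjusted p was then 0.0420, 0.0424 and 0.0356. Rps2 (-0.18, adjusted p = 0.119) and Rps15a (0.17, adjusted p = 0.123) came next, and without WD WT EV replicate 4 the adjusted p of Rps15a was 0.0445. With library size alone as the scale, Rps12, Rps15a and Rps24 passed as higher, but on this scale the median of all genes was itself 0.16 (log2) and 14.3% of all genes were called higher. WD WT NAMPT replicate 2, with the highest share of counts, also had the largest TMM factor (1.29), and without it the median was 0.02 and 0 genes passed.

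Of the 40 biogenesis genes 4 rose and 0 fell, with a median of 0.17, while 7.67% of all genes rose, so the count was close to the background. The nucleolar protein Nop56 rose by 0.43 on the log2 scale (adjusted p = 0.0232 by limma), with means of 10.8 ± 0.949 CPM (SD, n = 6) under EV and 15.3 ± 3.35 CPM (SD, n = 6) under NAMPT, and Tsr1, Gnl3 and Ubtf rose by 0.32, 0.30 and 0.23. In the mTORC1 and Myc list only Myc rose, by 1.26 on the log2 scale (adjusted p = 0.0393). The sum of Kupffer cell and macrophage markers was 416 to 1209 CPM in WD WT NAMPT, and 8 of 11 rose. Neutrophil markers reached 3.50 to 26.9 CPM, and 2 of 5 rose. Of the stellate cell markers 3 of 6 rose, and of the endothelial markers 1 rose and 1 fell. Their part in these values was not tested. Fau and the listed genes of the TOP class were not called.

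The libraries labelled LKO were compared in the same way. With the NAMPT vector against EV in the libraries labelled LKO, no ribosomal protein gene passed, and 1 gene in all did (0.00711%). The median was 0.02, the range -0.23 to 0.27, the median SE 0.0990, and 4 genes had an unadjusted p under 0.05, against 9.63% of all genes. They included Rpl7 (log2 fold change 0.18, adjusted p = 0.432 by limma) and Rps3a1 (0.16, adjusted p = 0.518). In 2 of the 79 genes every NAMPT library was above every EV library, against 0.505% of all genes. Rpl29, of the 60S subunit and named here after its values were seen, was 1 of these. It was at 118, 128, 128, 125 and 119 CPM in WD LKO EV and at 129, 130, 181, 136 and 131 CPM in WD LKO NAMPT, with the highest value in replicate 3. Without WD LKO NAMPT replicate 3 the median was 0.03 and 0 genes passed.

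For the libraries labelled WD LKO NAMPT against WD WT NAMPT, 0 of the 79 genes passed and 7.96% of all genes did. The share of all genes was 1.42% without WD LKO NAMPT replicate 3, and 0 and 2 genes passed without replicates 2 and 5 of that group. It was 0.555%, 1.07%, 4.54% and 4.64% without WD WT NAMPT replicates 3, 2, 1 and 4. It rose to 12.9% and 16.1% without WD LKO NAMPT replicates 4 and 1, and to 13.9% and 16.3% without WD WT NAMPT replicates 5 and 6. edgeR's quasi-likelihood test called 0.320% of all genes. The median was -0.06, the range -0.40 to 0.43, the median SE 0.102, and 9 genes had an unadjusted p under 0.05, against 28.6% of all genes. Rps27l was at 131, 155, 222, 123 and 179 CPM in WD LKO NAMPT, above the WD WT NAMPT median of 115 CPM in every library (log2 fold change 0.43, adjusted p = 0.0523 by limma). Its highest value was in WD LKO NAMPT replicate 3. Rps2 (0.21, adjusted p = 0.0914) also had an unadjusted p under 0.05. Rps27l passed when WD WT EV replicate 8, WD WT NAMPT replicate 6, or WD LKO NAMPT replicate 1 or 4 was left out. Rps2 passed without WD WT NAMPT replicate 6, and Rpl36a without WD LKO NAMPT replicate 4. Without WD LKO NAMPT replicate 3 the median was -0.04 and 0 genes passed. Of the biogenesis genes Wdr43 fell by 0.31 and Polr1a, the large subunit of RNA polymerase I, by 0.28, with a median of -0.13 over the 40. These 2 of 40 stood beside 3.78% of all genes called lower. Among cell type markers Marco and Csf1r (macrophages), Csf3r (neutrophils), Tat (hepatocytes) and Sox9 (cholangiocytes) fell and Hbb-bs (erythroid cells) rose, and their part in these values was not tested. These calls of single genes include replicate 3.

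Between WD LKO EV and WD WT EV, 0 of the 79 genes passed, and 1 of all genes did (0.00711%). The median was -0.03, the range -0.19 to 0.16 and the median SE 0.0924. 1 gene had an unadjusted p under 0.05, against 6.33% of all genes. The log2 fold changes were -0.14 for both Rps3a1 (adjusted p = 0.792 by limma) and Rpl7a (adjusted p = 0.815).

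Whether the NAMPT vector acted differently in the libraries labelled LKO was tested as an interaction. No ribosomal protein gene passed, with 1 of all genes called (0.00711%), a median of -0.04 and a median SE of 0.137. The 1 gene became 676 without WD LKO NAMPT replicate 1, 638 and 366 without WD WT NAMPT replicates 6 and 5, 62 without WD WT EV replicate 8, 33 and 19 without WD LKO EV replicates 4 and 3, and 3 or fewer without any other library. With all libraries 3 genes had an unadjusted p under 0.05, against 21.2% of all genes. They were Rps27l (0.41, adjusted p = 0.211), Rpl7 (0.22, adjusted p = 0.224) and Rpl9 (0.25, adjusted p = 0.230). Without WD LKO NAMPT replicate 3 the median was -0.02 and 0 genes passed. In the interaction, in the NAMPT comparison within the libraries labelled LKO and between the EV groups, none of the listed translation, biogenesis and control genes was called. Several of these comparisons share groups, and WD WT EV serves as control in 3 of them.

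**Figure D5:**
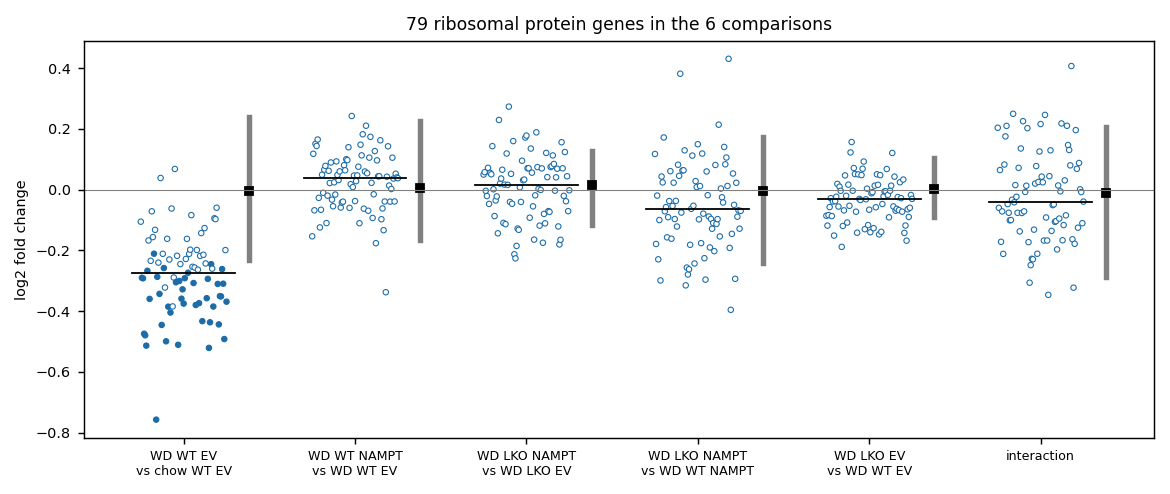
Points are the log2 fold changes of the 79 genes in each of the 6 comparisons, filled where the adjusted p was 0.05 or less, with a line at their median. The grey bar and square beside them give the middle 50% and the median of all 14065 genes. The genes lie below 0 as a group in the diet comparison (median -0.27), and their medians in the other 5 run from -0.06 to 0.04.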

How the data were processed

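Liver RNA was poly-A selected and sequenced as single 50-base reads. The authors aligned reads to GRCm38 with STAR (version 2.5.1a in the submitters' processing notes) and counted uniquely aligned, unambiguous reads per Ensembl gene with featureCounts (1.4.6-p5). Each library's deposited file gives the raw counts of every gene. CPM and RPKM columns stand beside them in the deposited files, made by the authors from the same counts (largest relative deviation when recomputed 5.9e-14). The strand setting of the counting is not given in the sources used here. Per the methods of the study, ribosomal genes were left out of its own analysis, so they were kept here on purpose, except 4 ribosomal RNA genes.

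Groups follow the sample titles. A general treatment label names the vector insert SIRT1, and the titles name NAMPT. Symbols came from GENCODE vM21 (40340 of 41388 identifiers). Genes over 1 CPM in at least 2 libraries were kept (14065). TMM factors (edgeR 4.0.16) and voomWithQualityWeights (limma 3.58.1, R 4.3.3) were fitted to all 25 libraries with 1 mean per group, and p-values were adjusted over all genes by the Benjamini-Hochberg method. SE are those of this fit. No library was a copy of another of its group, since chi-square over degrees of freedom was at least 15.6. On simulated counts for the diet comparison, 59% of 200 genes changed 2-fold among 14065 were recovered, with 6 false calls. Smaller changes, such as those of the ribosomal protein genes, were not simulated.

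The genes, the lists and the naming rule were chosen with earlier results of these data known. The lists are subunits, paralogs, Fau, translation factors and other genes of the TOP class, biogenesis, mTORC1 and Myc control, and cell type markers. The rule names a panel of 24 genes and the paralogs, called genes (the 5 largest falls if over 10), the 3 smallest p where fewer than 3 were called, and the extremes of RPKM and of residual SD. Some genes that it names are not reported here. Alternatives were edgeR's quasi-likelihood and exact tests, DESeq2 1.42.0, other scalings, no weights, no filter, only the groups compared, a replicate block, 2 surrogate variables (sva 3.50.0) and each library left out. The fit without 2 high libraries was added after seeing the data.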

Additional observations from a re-analysis of the deposited data

Results flagged for a closer look

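Named genes and summed shares were searched for a library far from the others of its group, with Dixon's test at the 95% level in groups of 5 or 6. Of 180 group values tested, 21 stood out, and chance alone gives about 1 in 20. The library WD LKO NAMPT replicate 3 gave 8 of the 21. It was low for Rps4x (118 CPM, the others 144 to 153), Rps29 (64.4 CPM, the others 221 to 253), Rplp0 (232 CPM, the others 299 to 325) and Rps15a (55.7 CPM, the others 73.3 to 79.3). It was high for Rps6 (161 CPM, the others 130 to 137), Rpl5 (246 CPM, the others 150 to 164), Rps3a1 (191 CPM, the others 153 to 163) and Rps24 (288 CPM, the others 183 to 199). This library also had the highest mitochondrial share, 12.3%, and a quality weight of 0.41, and the part of either was not tested.

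The library WD WT NAMPT replicate 2 gave 5 of the 21, all high. They were the share of counts (1.88%, the others 1.28% to 1.4%), Rps28 (170 CPM), Rpl41 (479 CPM), Rplp0 (400.0 CPM) and Rps12 (244 CPM, the others 172 to 181). WD WT EV replicate 7 was high for Rps2 (582 CPM) and Rpl11 (229 CPM), and WD WT EV replicate 6 was low for Rplp0 (226 CPM). WD LKO EV replicate 5 was high for Rps3 (201 CPM) and low for Rplp0 (266 CPM). The remaining values were Rps2 in WD WT NAMPT replicate 6 (536 CPM), Rpl9 in WD LKO EV replicate 1 (121 CPM) and Rpl36 in WD WT NAMPT replicate 1 (88.4 CPM).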

How the results depend on the processing

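In the diet comparison the 42 calls became 16 with edgeR's quasi-likelihood test, 18 with edgeR's exact test, 26 with DESeq2, 17 without sample weights, 22 without the filter and 25 with only the groups compared. Of all genes, 4.82%, 5.31%, 5.75%, 4.93%, 3.61% and 9.36% were called lower in that order. All calls of these 6 fits were among the 42. Leaving out 1 library gave 14 to 50 calls (14 without chow WT EV replicate 2, 26 without chow WT EV replicate 1, 50 without WD WT EV replicate 7) and medians from -0.37 to -0.24. Of all genes, 3.46%, 3.98% and 11.5% were called lower without these 3 libraries in turn. Without the highest library of both groups together there were 45 calls, and 11.6% of all genes were called lower. In all 37 further fits 0 genes were called higher, and among others Rpl12, Rpl13, Rpl13a, Rpl32, Rpl7, Rps24, Rps25, Rps27a, Rps3a1, Rps4x and Rpsa were called in each. No named call reversed.

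In WD WT NAMPT against WD WT EV, library size alone gave 3 calls, all higher, and a median of 0.18, where 14.3% of all genes were called higher and their median was 0.16. Leaving out 1 library gave 0 to 2 calls. In WD LKO NAMPT against WD WT NAMPT, upper-quartile factors gave 1 call and library size alone 1, both lower, where 5.07% and 4.52% of all genes were called lower. Leaving out 1 library gave 0 to 3. For the interaction the median was -0.17 with library size alone, where that of all genes was -0.15. Leaving out 1 library gave 0 calls in the interaction and in the other comparisons.

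The labels do not say whether the replicate numbers pair mice. Same-numbered deviations correlated between -0.23 and 0.41 over 4 numbers in the WT groups, which is too few to decide it. The replicate block left 42 calls in the diet comparison, 37 of them among the main 42, with 12.8% of all genes called lower, and 0 in the other comparisons.

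Without the 50 highest other genes in the denominator, the median share was 2.29% in chow WT EV, 1.94% in WD WT EV, 2.13% in WD WT NAMPT, 1.93% in WD LKO EV and 1.90% in WD LKO NAMPT. Without mitochondrial genes it was 1.29% in WD LKO EV. What depth limits was not tested by thinning counts.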
